A study of Mus musculus with 4 samples.

Results

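The expression of 9 genes was followed in single cells of the embryonic mouse brain. They are the homeobox genes Dlx1, Dlx2, Dlx5 and Dlx6, the noncoding RNA Dlx6os1, and the transcription factors Lhx6, Maf, Isl1 and Ebf1. They were taken by symbol, as 9 of the 27998 genes of the Illumina matrix and as 9 of the 12561 genes that both matrices name, with 21 of the 31986 isoforms of the Nanopore matrix. The cells came from an E18 mouse of strain C57BL/6, whose cortex, hippocampus and ventricular zone were bought as combined dissected tissue, and the labels name no transgene and no treatment. One emulsion of the 10x Chromium system, which barcodes single cells in droplets, was divided into 2 aliquots, of 190 and of 951 cells, and the cDNA of both was read on the Illumina and on the Nanopore platform. After cells with fewer than 1400 detected genes were left out, 186 and 935 cells remained. The aliquots are technical replicates of 1 suspension, so every p-value below covers the spread between these aliquots and not the spread between animals.

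Dlx genes encode homeodomain factors that are switched on in progenitors of the ganglionic eminences, the ventral part of the embryonic forebrain, and that are needed for GABAergic neurons to form and to migrate. From these progenitors come interneurons, which migrate to cortex and hippocampus, and projection neurons, which stay and build the striatum. Lhx6, a LIM homeodomain factor, and Maf, a bZIP factor, are known from interneurons of the medial ganglionic eminence, whereas Isl1, a LIM homeodomain factor, and Ebf1, a helix-loop-helix factor, are known from neurons of the direct striatal pathway.

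Cells were clustered on their Illumina counts without the 9 genes and without 25 related genes described further on, so that these genes did not shape the classes. In all, 141 cells (17 and 124 in the 190 and the 951 cell aliquot) were interneuron-like, with 10 of 11 markers raised, Gad1, Gad2, Sst, Npy and Nxph1 among them. A further 176 cells (31 and 145) were striatal projection neuron-like. This name rests on 6 of 16 markers, of which Foxp1, Foxp2 and Rxrg are not shared with the interneuron list, and the dopamine receptor Drd2 was at 0 UMIs. UMIs are the molecular tags by which single transcripts are counted, and CPM are UMIs per 1000000 UMIs of a class. Drd1, Penk and Tac1 had 3, 3 and 7 UMIs in this class. The interneuron markers Htr3a and Sst were at 131 and 164 CPM in it, against 114 and 582 CPM in interneuron-like cells. Other GABAergic cells may thus be part of the class, and this was not tested. The labelled tissue does not name the striatum. The other classes were 119 cycling progenitor-like, 70 radial glia-like, 512 glutamatergic-like and 16 Cajal-Retzius-like cells, and 87 cells with Eomes, Neurog2 and microglial transcripts were left unnamed. The label that grouped the 9 genes calls them interneuron factors. The counts went against it for Isl1 and Ebf1, which had 2 and 8 Illumina UMIs in the interneuron-like class and 210 and 993 in the striatal-like class. Depth differed between classes, with median Illumina UMIs per cell of 4916 in interneuron-like, 5557 in striatal-like, 9729 in cycling and 8933 in glutamatergic-like cells. In all, 13 barcodes occurred in both aliquots, and 7 of the 24 kept cells that carried them were in the GABAergic classes. No call on the 9 genes changed without these cells.

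The Dlx genes lie in pairs. Dlx1 (GRCm38 chr2:71528113-71533981, plus strand) and Dlx2 (chr2:71543408-71546754, minus strand) are 9426 bases apart. Dlx6 (chr6:6863334-6868568, plus strand) and Dlx5 (chr6:6877805-6882085, minus strand) are 9236 bases apart. Dlx6os1 (chr6:6820189-6871592, minus strand) runs across Dlx6 from the other strand and shares 0 exon bases with it. Whether the gene counts used strand was not given in the sources used here, so reads of Dlx1 and of the antisense gene Dlx1as, which overlaps it, may not be told apart. Lhx6 (chr2:36081953-36105408, minus strand), Maf (chr8:115682942-115707794, minus strand), Isl1 (chr13:116298281-116309689, minus strand) and Ebf1 (chr11:44617317-45008091, plus strand) stand alone. The isoforms of Dlx1, Dlx5 and Isl1 described further on turn on short stretches of sequence, which are given here 5′ to 3′ from Gencode vM21. The first is the start of exon 1 of Dlx1-206 (chr2:71530780-71531056, plus strand), with capitals over the 177 bases that are intron in the main isoform Dlx1-201. The second is exon 2 of Dlx5-201 (chr6:6879526-6879710, minus strand), with capitals over the 82 bases that Dlx5-202 skips. The third is exon 5 of Isl1-201 (chr13:116301611-116301778, minus strand), with capitals over the 69 bases that Isl1-202 skips.
Dlx1-206 exon 1: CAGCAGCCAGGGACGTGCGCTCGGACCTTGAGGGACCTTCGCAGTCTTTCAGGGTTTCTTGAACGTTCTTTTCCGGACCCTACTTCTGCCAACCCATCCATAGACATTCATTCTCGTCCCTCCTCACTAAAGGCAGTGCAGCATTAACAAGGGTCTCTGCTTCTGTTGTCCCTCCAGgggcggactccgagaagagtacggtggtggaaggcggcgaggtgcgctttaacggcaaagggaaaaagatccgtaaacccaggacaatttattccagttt
Dlx5 exon 2: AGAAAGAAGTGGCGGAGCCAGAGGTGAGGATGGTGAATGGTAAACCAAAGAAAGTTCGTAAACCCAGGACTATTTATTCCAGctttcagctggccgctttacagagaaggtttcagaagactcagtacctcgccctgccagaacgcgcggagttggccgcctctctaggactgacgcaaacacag
Isl1 exon 5: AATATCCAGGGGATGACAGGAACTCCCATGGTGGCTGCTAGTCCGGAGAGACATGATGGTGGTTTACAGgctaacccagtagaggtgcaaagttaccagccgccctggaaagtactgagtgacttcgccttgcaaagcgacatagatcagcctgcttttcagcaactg

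Windows of 250 bases before RefSeq transcription starts (GRCm38.p6) were matched for 6 of the 9 genes, in 10 windows, and searched on both strands for TAATTA, a palindrome of the core that homeodomain factors recognise. It stood in 2 of the 10 windows, both of Dlx6os1, against 4.84% of all 32851 windows. The 2 windows had GC contents of 33.2% and 34.0%, below the median of 52.4% over all windows. The window of Dlx2 (chr2:71546755-71547004, minus strand), a gene whose levels ran alongside those of Dlx6os1, held none. The first Dlx6os1 window (chr6:6869534-6869783, minus strand) has the letters 130 and 74 bases before its RefSeq start. The second (chr6:6861684-6861933, minus strand) has them 174 bases before its own. Both windows lie inside Dlx6os1-201, the isoform with 95.2% of the Nanopore UMIs of the gene. Its annotated introns are chr6:6824568-6869308 and chr6:6869788-6871488, so the first window is exon and the second intron of it. Neither window is thus the sequence before the start of that isoform. Capitals mark the match, which is a description of the letters and not of binding.
Dlx2 window: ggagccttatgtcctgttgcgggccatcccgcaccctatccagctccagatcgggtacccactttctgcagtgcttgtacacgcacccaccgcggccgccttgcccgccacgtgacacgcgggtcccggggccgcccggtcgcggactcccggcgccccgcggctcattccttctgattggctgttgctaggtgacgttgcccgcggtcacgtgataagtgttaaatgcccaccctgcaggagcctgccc
Dlx6os1 first window: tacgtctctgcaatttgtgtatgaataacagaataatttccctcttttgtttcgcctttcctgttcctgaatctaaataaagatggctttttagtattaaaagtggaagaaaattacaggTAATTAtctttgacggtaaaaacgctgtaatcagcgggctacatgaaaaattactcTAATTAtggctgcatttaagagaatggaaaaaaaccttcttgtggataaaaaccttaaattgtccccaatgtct
Dlx6os1 second window: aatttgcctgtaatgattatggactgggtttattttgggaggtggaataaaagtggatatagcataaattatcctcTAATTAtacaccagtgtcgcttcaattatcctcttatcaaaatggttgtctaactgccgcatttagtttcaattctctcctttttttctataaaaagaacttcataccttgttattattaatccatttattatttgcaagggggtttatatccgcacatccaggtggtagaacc

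The 5 transcripts of the Dlx loci were high in interneuron-like, striatal-like and cycling cells and low elsewhere. Levels are given as CPM, Illumina UMIs per 1000000 UMIs of all cells of a class, in the 190 and then the 951 cell aliquot. Dlx1 was at 311 and 283 CPM in interneuron-like, 363 and 258 in striatal-like, 283 and 188 in cycling and 5.84 and 4.73 in glutamatergic-like cells. Dlx2 was at 415 and 302 CPM in interneuron-like, 339 and 232 in striatal-like, 255 and 198 in cycling and 12.8 and 4.26 in glutamatergic-like cells. For both genes the ranges of the aliquots overlapped between neighbours among the 3 high classes and lay apart from every other class. Dlx5, a later member of the Dlx cascade, was at 218 and 165 CPM in interneuron-like, 328 and 184 in striatal-like and 99.5 and 82.3 in cycling cells. Its level in cycling cells was thus below that in both neuron classes in each aliquot. In glutamatergic-like cells Dlx5 was at 2.34 and 2.84 CPM.

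**Figure D1:**
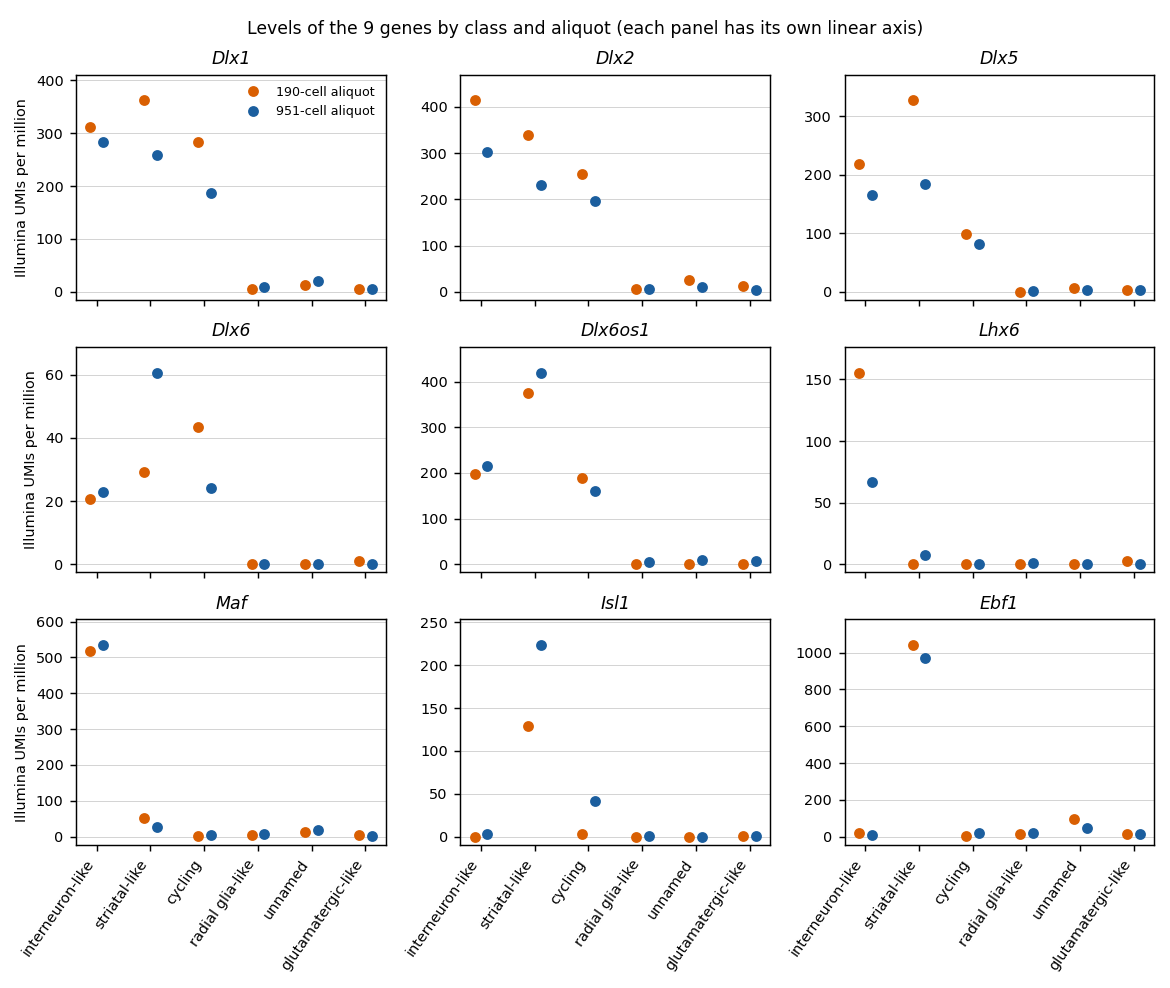
Illumina UMIs per 1000000 UMIs (linear axis, 1 scale per panel) of each of the 9 genes in 6 classes, with 1 point for each aliquot. The Dlx-locus transcripts are high in the interneuron-like, striatal-like and cycling progenitor-like classes, Maf and Lhx6 in the interneuron-like class and Isl1 and Ebf1 in the striatal-like class. The 16 Cajal-Retzius-like cells are not drawn.

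Dlx6 had the fewest UMIs of the 4 Dlx genes. It was at 20.7 and 22.9 CPM in interneuron-like, 29.2 and 60.6 in striatal-like, 43.5 and 24.1 in cycling and 1.17 and 0.236 in glutamatergic-like cells. The interneuron-like values lay below both aliquots of the other high classes, which overlapped each other. In the 190 cell aliquot, Dlx6 had 2 UMIs in interneuron-like and 5 in striatal-like cells. The exact intervals for counting error were 2.51 to 74.9 and 9.50 to 68.2 CPM, so this aliquot does not order these classes. In the 951 cell aliquot the interneuron-like interval was 12.5 to 38.4 CPM. It lay below the striatal-like interval (45.2 to 79.7) but overlapped the cycling interval (15.4 to 35.8). Dlx6os1, the antisense RNA also known as Evf2, was at 197 and 214 CPM in interneuron-like, 374 and 420 in striatal-like, 190 and 162 in cycling and 1.17 and 6.15 in glutamatergic-like cells. Here the striatal-like class stood apart from the other high classes in both aliquots.

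Against the glutamatergic-like class, the mean of the 2 GABAergic-like classes was higher for 8 of the 9 genes (edgeR's quasi-likelihood test with p-values adjusted by Benjamini-Hochberg over all genes, threshold 0.05). This mean was taken over the log2 levels of the 2 classes. Of the 8688 genes tested, 8.76% were called, 2.79% as higher and 5.97% as lower. The log2 fold change was 5.79 ± 0.28 (SE) for Dlx1, 5.51 ± 0.31 for Dlx2, 6.09 ± 0.32 for Dlx5, 5.89 ± 0.67 for Dlx6 and 5.74 ± 0.31 for Dlx6os1. For Lhx6 it was 4.81 ± 0.88, for Maf 5.26 ± 0.32 and for Ebf1 2.91 ± 0.37. The largest adjusted p of these 8 was that of Lhx6, 0.000113 by edgeR's quasi-likelihood test. With the 190 cell aliquot alone, the change of Lhx6 was 1.43 and that of Dlx6 3.85. Over both aliquots their glutamatergic-like UMIs numbered 3 and 2, and Lhx6 had 0 UMIs in the striatal-like class of the 190 cell aliquot. For Dlx6os1 the change was 7.29 in that aliquot alone. Ratios of CPM were taken with exact 95% intervals for counting error. Lhx6 was 134 (43.6 to 670) times higher in interneuron-like and Dlx6 141 (37.2 to 1191) times higher in striatal-like than in glutamatergic-like cells. For Lhx6 in striatal-like cells the ratio was 10.1 (2.15 to 62.1), from 6 against 3 UMIs. Ebf1 had a ratio of 70.3 (55.2 to 90.7) in striatal-like but 0.809 (0.336 to 1.68) in interneuron-like cells. The higher mean of Ebf1 thus came from the striatal-like class. Isl1 was not called (4.10 ± 1.33, adjusted p = 0.0823 by edgeR's quasi-likelihood test), but it was called when the aliquot entered as a block (adjusted p = 0.00113). In striatal-like cells its ratio of CPM to glutamatergic-like cells was 176 (79.5 to 485). In interneuron-like cells it was 2.39 (0.236 to 13.4), from 2 against 6 UMIs. The classes were made from the same cells' other genes, so these p-values are not independent of the clustering. Fewer positive cells and fewer transcripts per cell cannot be told apart in such sums.

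Single cells held few UMIs of each transcript, yet nearly every GABAergic-like cell held one of the Dlx loci. At least 1 UMI of the 5 Dlx-locus transcripts was found in 138 of 141 interneuron-like cells (97.9%, exact 95% interval 93.9 to 99.6) and in 166 of 176 striatal-like cells (94.3%, 89.8 to 97.2). In glutamatergic-like cells, which should lack them, the share was 12.5% (9.76 to 15.7) at a higher median depth of 8933 UMIs, and it was 23.8% and 10.4% by aliquot. The striatal-like share was 87.1% in the 190 and 95.9% in the 951 cell aliquot, and the interneuron-like share 100% and 97.6%. At least 2 different transcripts of the 5 were seen in 83.7% of interneuron-like, 85.8% of striatal-like and 1.17% of glutamatergic-like cells. Of single transcripts, Dlx2 was seen in 74.5% of interneuron-like cells, or in 44.7% when each cell was thinned to 2000 UMIs. The share of Dlx2 in glutamatergic-like cells was 4.69%, or 0.977% when thinned. Dlx6os1 was seen in 61.7% of interneuron-like and 74.4% of striatal-like cells, or in 30.5% and 54.0% when thinned. Among cells with a Dlx1 UMI, the median was 2 UMIs in each GABAergic-like class and 3 in the cycling class, where 25 cells with 5 or more UMIs held 61.2% of them. These raw counts are not scaled to depth, which was higher in cycling cells (median 9729 UMIs, against 4916 in interneuron-like and 5557 in striatal-like cells). When thinned to 2000 UMIs, Dlx1 was seen in 33.6% of cycling, 39.0% of interneuron-like and 31.25% of striatal-like cells.

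The cycling class held cells with and without Dlx transcripts. A Dlx-locus UMI was seen in 89 of 119 cycling cells (74.8%), in 96.0% of them in the 190 and 69.1% in the 951 cell aliquot, against 14.3% of the 70 radial glia-like cells. With 2 or more such UMIs as the divide, and levels taken over both aliquots, 79 cells (18 and 61) stood on one side and 40 (7 and 33) on the other. In the 79 cells, Gad2, a GABA-synthesising enzyme, was at 269 CPM and Sp9, a zinc finger factor of the ganglionic eminences, at 162. In the 40 cells these were at 8.32 and 3.33 CPM. The dorsal progenitor factors ran the other way, with Eomes at 1.39 CPM in the 79 and 178 in the 40 cells, Neurog2 at 5.58 and 288, and Pax6 at 127 and 338. The 40 cells were the deeper ones, with a median of 13144.5 Illumina UMIs against 8924. These cells were divided by the very transcripts described, so no test was made.

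Lhx6 and Maf marked the interneuron-like class. Maf was at 518 and 535 CPM in interneuron-like, 52.6 and 27.4 in striatal-like, 3.11 and 4.01 in cycling and 3.50 and 3.07 in glutamatergic-like cells. Interneuron-like cells were far above all other classes in both aliquots, and striatal-like cells came next. Lhx6 was at 156 and 67.0 CPM in interneuron-like, 0 and 7.13 in striatal-like and 2.34 and 0.236 in glutamatergic-like cells. In cycling cells it had 0 UMIs, which allows up to 2.28 CPM. The interneuron-like class lay apart from every other class, while striatal-like and glutamatergic-like cells overlapped. The interneuron-like aliquots differed from each other by more for Lhx6 than for Maf. Between the interneuron-like and the striatal-like class, 5 of the 9 genes were called, 2 as higher and 3 as lower in interneuron-like cells. Of all 8688 genes, 2.53% were called, 1.15% as higher and 1.38% as lower. Maf was higher in interneuron-like cells by 3.88 ± 0.28 on the log2 scale (adjusted p = 1.53e-13, edgeR's quasi-likelihood test) and Lhx6 by 3.96 ± 0.78 (adjusted p = 0.00124). Lhx6 was at 7.13 CPM or less in every other class, so it passed the count filter only through interneuron-like cells. Its calls here and against the glutamatergic-like class are thus no added support. Without the 951 cell aliquot the change of Maf was 3.08. That of Lhx6 was then 8.31, a fitted value against 0 UMIs that is no bound.

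Maf was seen in 113 of the 141 interneuron-like cells (80.1%, or 63.1% thinned) and Lhx6 in 41 of them (29.1%, or 12.1% thinned). In glutamatergic-like cells the shares were 2.93% and 0.586%. Of the 41 cells with Lhx6, 34 (82.9%) also had Maf, and of the 100 without it 79.0%. The 28 cells without a Maf UMI differed in other respects, as a description with no test. Dlx1 was at 582 CPM in them (564 and 585 by aliquot) and at 218 (254 and 212) in the 113 cells with Maf. Dlx6os1 was at 411 (225 and 439) against 165 (191 and 161), whereas Dlx2 was at 314 against 319, with overlapping aliquots. In the same cells Nr2f2, a nuclear receptor of caudal ganglionic eminence interneurons, was at 217 CPM against 34.8, Prox1, a factor of the same lineage, at 67.2 against 10.5, and Sox6, which acts downstream of Lhx6, at 14.9 against 122. Htr3a, a serotonin receptor of caudal interneurons, was at 411 against 45.3, but at 0 against 12.7 in the 190 cell aliquot, where 3 cells had no Maf UMI. For Dlx1, Dlx6os1, Nr2f2, Prox1 and Sox6 the aliquots lay apart, though a cell without a Maf UMI may still express Maf. In the 190 cell aliquot the whole interneuron-like class held only 1 UMI of Prox1, 3 of Nr2f2 and 8 of Sox6. That aliquot therefore carries little weight for these genes. Cells with an Lhx6 UMI had Sst, the somatostatin gene, at 1124 CPM (496 and 1334) and those without at 328 (425 and 319). Htr3a was at 13.3 CPM with and 162 without Lhx6. Median depth was 5405 UMIs with and 4616.5 without Lhx6, and its part in these splits was not tested.

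**Figure D2:**
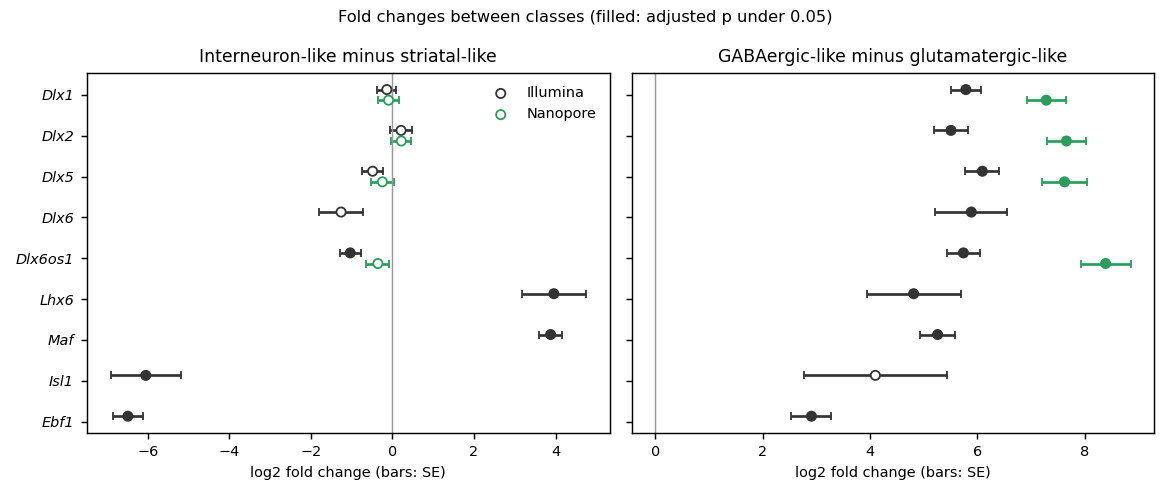
Log2 fold changes of the 9 genes between classes, on Illumina and on Nanopore counts. Interneuron-like minus striatal-like is on the left, and the mean log2 level of both GABAergic-like classes minus glutamatergic-like on the right. Bars are standard errors and filled points passed an adjusted p of 0.05; genes under the count filter on Nanopore are absent, and Isl1 is not drawn for Nanopore because it had 0 UMIs in the interneuron-like class. Maf and Lhx6 lie far to the right and Isl1 and Ebf1 far to the left of 0 on the left, while all 9 genes lie above 0 on the right.

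Isl1 and Ebf1 were the counterpart in the striatal-like class. Isl1 was at 129 and 224 CPM in striatal-like, 0 and 3.27 in interneuron-like, 3.11 and 42.1 in cycling and 1.17 and 1.18 in glutamatergic-like cells. The striatal-like aliquots lay above all others. The cycling level came mostly from 1 aliquot, and in that class 4 cells with 5 or more UMIs held 81.4% of 43 UMIs. Ebf1 was at 1041 and 969 CPM in striatal-like, 20.7 and 9.81 in interneuron-like, 6.22 and 21.1 in cycling and 12.8 and 14.2 in glutamatergic-like cells. It also had 98.6 and 46.6 CPM in the unnamed and 351 and 55.8 in the Cajal-Retzius-like cells, the latter from 11 and 7 UMIs. The log2 change from striatal-like to interneuron-like cells was -6.49 ± 0.36 for Ebf1 (adjusted p = 2.88e-16, edgeR's quasi-likelihood test) and -6.05 ± 0.86 for Isl1 (adjusted p = 0.00101). Isl1 passed the count filter only with its striatal-like counts, so its call is no added support. As a ratio of CPM, Isl1 was 73.5 times higher in striatal-like cells (exact 95% interval 20.1 to 611), from 210 against 2 UMIs. With the 190 cell aliquot alone the fitted changes were -5.83 for Ebf1 and -8.25 for Isl1, the latter against 0 UMIs. Of the Dlx transcripts, Dlx6os1 was lower in interneuron-like cells, with a change of -1.04 ± 0.26 (adjusted p = 0.0175, edgeR's quasi-likelihood test). DESeq2 did not call it (adjusted p = 0.241). The other changes did not pass the test, at -0.14 ± 0.23 for Dlx1, 0.21 ± 0.26 for Dlx2, -0.49 ± 0.25 for Dlx5 and -1.26 ± 0.54 for Dlx6. That of Dlx1 was 0.04 in the 951 cell aliquot alone.

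Within the striatal-like class the 2 factors were held by few cells. Ebf1 had its 993 UMIs in 34 of 176 cells (19.3%), with a median of 26 and a maximum of 71 UMIs in these. In the 512 glutamatergic-like cells it had 71 UMIs in 54 cells (10.5%), at a median of 1 and a maximum of 4. The 28 striatal-like cells (5 and 23) with 5 or more UMIs held 99.2% of the Ebf1 UMIs of their class, and 6 further cells had 1 to 4, of which 5 had 1. Isl1 had 210 UMIs in 49 cells (27.8%), with a median of 4 and a maximum of 13. Of the 34 cells with Ebf1, 26 (76.5%, exact 95% interval 58.8 to 89.3) also had Isl1, against 16.2% of the cells without Ebf1. The median depth was 5872 UMIs with and 5509.5 without Ebf1.

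The 28 cells rich in Ebf1 were low in most Dlx transcripts. Dlx1 was at 57.6 CPM in them (161 and 40.3 by aliquot) and at 321 (397 and 305) in the other 148 cells. Dlx2 was at 74.8 (40.2 and 80.6) against 286 (390 and 264), and Dlx6os1 at 109 (0 and 128) against 475 (438 and 483). For these 3 the aliquots lay apart. Dlx5 was at 121 against 227 CPM, also apart. Dlx6 ran the other way, at 92.1 (40.2 and 101) against 47.7 (27.4 and 52.0), with overlapping aliquots and from 16 and 40 UMIs. Sp9 was at 17.3 against 246 CPM, Six3, a homeobox factor of the other striatal pathway, at 11.5 against 183, and Tshz1, a zinc finger factor, at 0 against 96.6. Foxp1, a forkhead factor of striatal neurons, was at 1128 against 310 CPM, Foxp2 at 351 against 140 and Bcl11b, a factor of striatal and subcerebral projection neurons, at 1226 against 490. The aliquots of these 6 genes also lay apart. Isl1 was at 627 against 120 CPM, and Gad2 at 564 against 514. The divide was set on Ebf1 itself after its counts were seen, so these values describe the cells and were not tested.

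**Figure D3:**
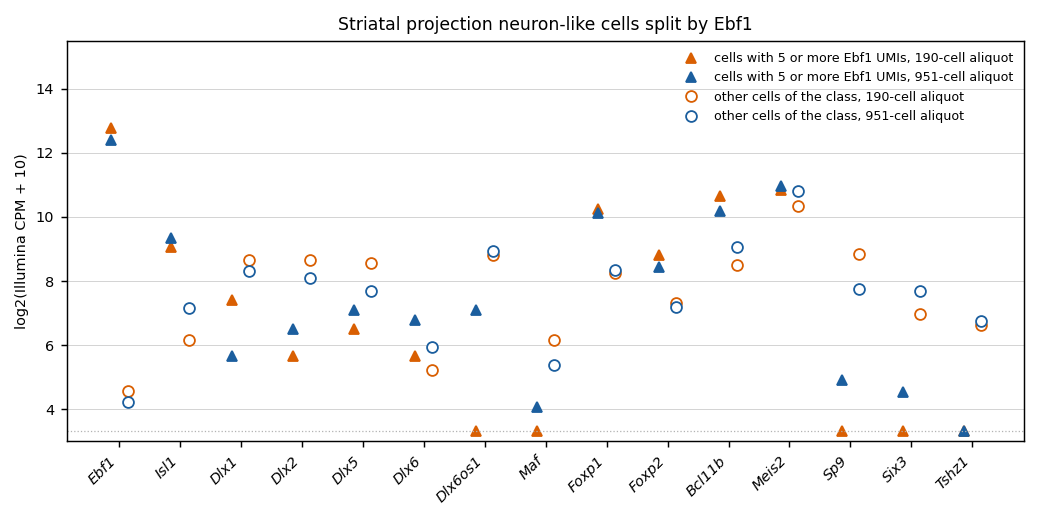
Levels in striatal projection neuron-like cells with 5 or more Ebf1 UMIs (triangles, 28 cells) and in the other 148 cells of the class (circles), as log2 of Illumina CPM plus 10, in each aliquot; the dotted line marks 0 CPM. Dlx1, Dlx2, Dlx6os1, Sp9, Six3 and Tshz1 lie lower and Isl1, Foxp1, Foxp2 and Bcl11b higher in the cells with Ebf1, which was used to divide them.

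Across 25 genes of the same developmental pathway, chosen as upstream factors, interneuron factors and receptors, and striatal factors, 20 were tested between the interneuron-like and the striatal-like class. Of these, 6 were higher and 3 lower in interneuron-like cells, with a median log2 change of -0.33 over the 20 against -0.01 over all genes tested. Among all 8688 genes the share called was 2.53%, with 1.15% higher and 1.38% lower. With the aliquot as a block, 8 of the 20 were higher and 5 lower, and 486 of the 8688 genes were called. The rises included Cxcr4 (4.55 ± 0.74, adjusted p = 7.91e-05, edgeR's quasi-likelihood test) and Ackr3 (3.70 ± 0.47), receptors for the chemokine that guides migrating interneurons, and Satb1, Sox6 and Zeb2. The 3 called falls were in Zfhx3, which had 124 UMIs in striatal-like and 0 in interneuron-like cells, in Meis2 (-6.44 ± 0.30) and in Pbx3 (-2.63 ± 0.40). Six3, at 99.4 and 164 CPM in striatal-like and 20.7 and 0 in interneuron-like cells, was not called on Illumina counts. On Nanopore counts, with 46 UMIs in striatal-like cells, it was called lower in interneuron-like cells (-4.86 ± 1.01, adjusted p = 0.00108, edgeR's quasi-likelihood test). Interneuron-like cells held 1 and 0 Nanopore UMIs of Six3, so it passed the count filter only through other classes. Its Nanopore call is thus no added support. Between the GABAergic-like and the glutamatergic-like classes, 11 of the 20 were higher and 1 lower. Among all 8688 genes, 2.79% were called higher and 5.97% lower there. The rises included Sp9 (6.29 ± 0.64) and Sox6 (5.19 ± 0.48), and Meis2 (-1.94 ± 0.20) was the fall. The fall of Meis2 came from the interneuron-like class alone, at 10.4 and 21.3 CPM, through a mean on the log2 scale. It does not show a lower level in GABAergic-like cells as a whole. Striatal-like cells were at 1363 and 1830 CPM of Meis2, above the 667 and 647 CPM of glutamatergic-like cells.

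The pattern over classes was shared closely among the Dlx transcripts. Over 12 points, 6 classes in 2 aliquots, and on log2 of CPM plus 10, Pearson's r between pairs of the 5 Dlx-locus transcripts lay between 0.92 and 0.99. These points share libraries and cell classes, so r is a description. Among 8087 genes with at least 100 UMIs, the 3 most like Dlx5 were Gad2 (0.995), Sp9 (0.990) and Dlx2 (0.981). The 3 most like Maf were Nxph1 (0.968), which encodes a neurexin ligand, Rpp25 (0.959) and the glutamate receptor gene Gria1 (0.957). For Isl1 they were Zfhx3 (0.958), Syt6 (0.934) and Mpped2 (0.909), and for Ebf1 Zfp503 (0.953), Ogfr (0.878) and Foxp2 (0.873). Dlx1 and Dlx2 were most like each other (0.987), and Dlx6 and Dlx6os1 were most like each other from the side of Dlx6 (0.964). Isl1 and Ebf1 had an r of 0.83, while Maf had 0.02 with Isl1 and 0.08 with Ebf1. Lhx6, with 66 UMIs, was below the count asked for.

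The Nanopore isoform counts held the 9 genes very unevenly. Dlx1 had 191 Illumina and 113 Nanopore UMIs in the 190 and 619 and 373 in the 951 cell aliquot, or 60.0% in all. Dlx2 had 196 and 149, then 608 and 454 (75.0%), and Dlx5 112 and 77, then 353 and 253 (71.0%). Isl1 had 24 and 11, then 239 and 119 (49.4%). These ratios lie near or above the median of 51.3% over 9137 genes with at least 50 Illumina UMIs (quartiles 23.0% and 73.7%). Dlx6os1 had 146 and 46, then 681 and 227 (33.0%). The remaining 4 genes were nearly absent in both aliquots. Dlx6 had 22 and 0, then 90 and 3 UMIs (2.68%). Lhx6 had 17 and 0, then 49 and 2 (3.03%), and Maf 66 and 1, then 385 and 5 (1.33%). Ebf1, with the most Illumina UMIs of the 9 genes, had 222 and 1, then 955 and 5 (0.510%), and 62 of the 9137 genes had a lower ratio. Nanopore UMIs were assigned with the help of the Illumina data and counted here only when they matched 1 annotated isoform. No cell had a Nanopore UMI of any of the 9 genes without an Illumina UMI of it.

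**Figure D4:**
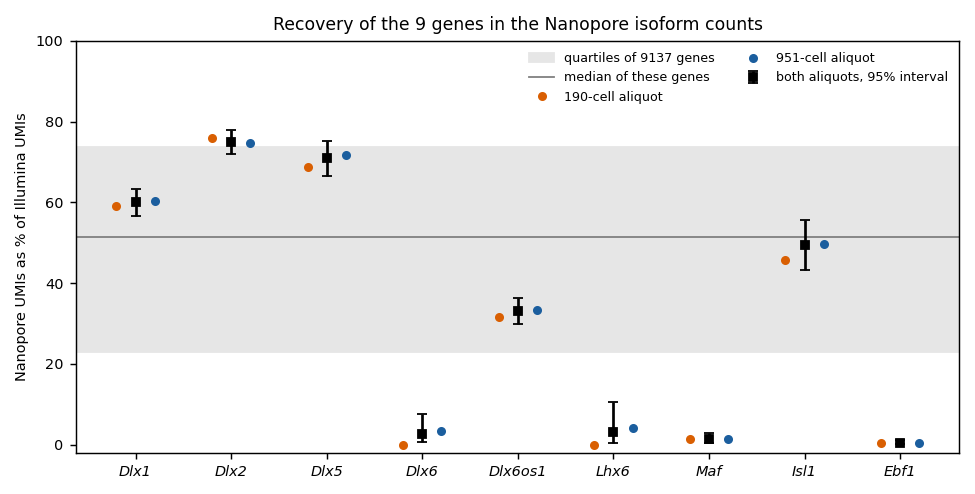
Nanopore UMIs as a percentage of Illumina UMIs for each of the 9 genes, in each aliquot (points) and in both together (squares, exact 95% interval). The grey band spans the quartiles of 9137 genes, and Dlx6, Lhx6, Maf and Ebf1 lie below it, between 0.510% and 3.03%.

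Between the platforms, scaled to the library, 5 of the 9 genes were lower in Nanopore, where 50.5% of the 9855 genes tested were called, 30.3% as lower and 20.2% as higher. The log2 change was -6.67 ± 0.21 for Ebf1, -5.19 ± 0.32 for Maf, -4.26 ± 0.51 for Dlx6, -4.12 ± 0.68 for Lhx6 and -0.68 ± 0.11 for Dlx6os1 (adjusted p = 0.00511, edgeR's quasi-likelihood test). DESeq2 did not call Dlx6os1 (adjusted p = 0.0638). With 0 Nanopore UMIs, the 190 cell aliquot alone gave fitted changes of -7.07 for Dlx6 and -6.70 for Lhx6. The changes of Dlx1 (0.18 ± 0.23), Dlx2 (0.52 ± 0.27), Dlx5 (0.41 ± 0.25) and Isl1 (-0.04 ± 0.44) were not called. With the aliquot as a block, 8 of the 9 were called, since Dlx1 (adjusted p = 0.0302, edgeR's quasi-likelihood test), Dlx2 (1.31e-05) and Dlx5 (0.000193) were then higher in Nanopore. Of all 9855 genes, 6972 were called in that fit.

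The class pattern of the genes that Nanopore retained was also seen in its counts. These counts are of the same molecules, assigned by means of the Illumina UMIs, so they are not an independent sample. Dlx1 was at 345 and 309 CPM of Nanopore UMIs in interneuron-like, 401 and 277 in striatal-like and 0 and 2.01 in glutamatergic-like cells. Of 5142 genes tested between GABAergic-like and glutamatergic-like classes on Nanopore, 10.9% were called, 3.75% as higher and 7.18% as lower, and Dlx1, Dlx2, Dlx5 and Dlx6os1 were among those called higher, with log2 changes of 7.28 ± 0.36, 7.66 ± 0.36, 7.62 ± 0.42 and 8.39 ± 0.47. Isl1 was tested too and not called; it had 0 glutamatergic-like UMIs, and its fitted change had no usable SE. Between interneuron-like and striatal-like cells, where 2.98% of the 5142 genes were called, 1.28% as higher and 1.69% as lower, Isl1 was the 1 gene called of 5 tested. It had 0 Nanopore UMIs in interneuron-like and 104 in striatal-like cells, at least 23.4-fold higher in the latter with a floor of 3 UMIs over the class. DESeq2 did not call it. With 0 UMIs in interneuron-like cells, Isl1 could pass the count filter only through other classes, so its call is no added support. Dlx6, Lhx6, Maf and Ebf1 were below that filter and were not tested. Dlx6os1 changed by -0.36 ± 0.28 on Nanopore (adjusted p = 0.71, edgeR's quasi-likelihood test), and whether this differs from its Illumina change was not tested. Its Nanopore UMIs were 52.0% of its Illumina UMIs in interneuron-like, 32.4% in striatal-like and 26.1% in cycling cells, whereas for Dlx2 these were 77.3%, 79.1% and 76.7%. In glutamatergic-like cells there were 5 Nanopore and 25 Illumina UMIs for Dlx1, 5 against 29 for Dlx2, 3 against 14 for Dlx5 and 1 against 27 for Dlx6os1, and no difference in this ratio between classes was tested.

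Most genes with enough Nanopore UMIs were read as 1 main isoform. Dlx2-201 took 96.4% of 603 UMIs, Dlx6os1-201 95.2% of 273 and Dlx5-201 91.5% of 330. Dlx1-201, the coding isoform, took 73.5% of 486 UMIs (exact 95% interval 69.3 to 77.3), and Dlx1-206, annotated as a retained intron and starting in the capitals of the first sequence above, took 25.3%. The share of Dlx1-206 was 26.0% in interneuron-like, 27.0% in striatal-like and 23.5% in cycling cells. The annotated junction of Dlx1-206 is also one of Dlx1-201, so no junction of its own marks it, and the same holds for Dlx2-202 (3.65%) and Isl1-205 (10.0%). Dlx5-202 and Isl1-202 each have a junction of their own. Dlx5-202, which lacks the 82 capital bases of the second sequence and has an annotated coding length of 438 bases against 867, took 8.48% of the UMIs of Dlx5. The lost stretch holds the start of the homeobox, and 82 is not a multiple of the codon length. Its share was 7.37% in interneuron-like, 7.28% in striatal-like and 12.5% in cycling cells, with overlapping intervals. For Isl1, Isl1-201 took 74.6% of 130 UMIs and Isl1-202, which lacks the 69 capital bases of the third sequence and has a coding length of 978 against 1047 bases, 13.8%. The 6 Maf UMIs were all Maf-201, and the 6 Ebf1 UMIs were 4 of Ebf1-201 and 2 of Ebf1-207.

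Isoform usage was compared between the interneuron-like and the striatal-like class in 672 genes, of which 7, or 1.04%, were called (diffSpliceDGE of edgeR, gene-level adjusted p under 0.05). Dlx1 and Dlx2 were the members tested, and neither was called, both at an adjusted p of 0.946 by edgeR. The share of Dlx1-201 was 1.88 percentage points higher in interneuron-like cells, at -0.18 in the 951 and 9.06 in the 190 cell aliquot alone. Such a spread leaves a difference of a few points not detectable at this depth.

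**Figure D5:**
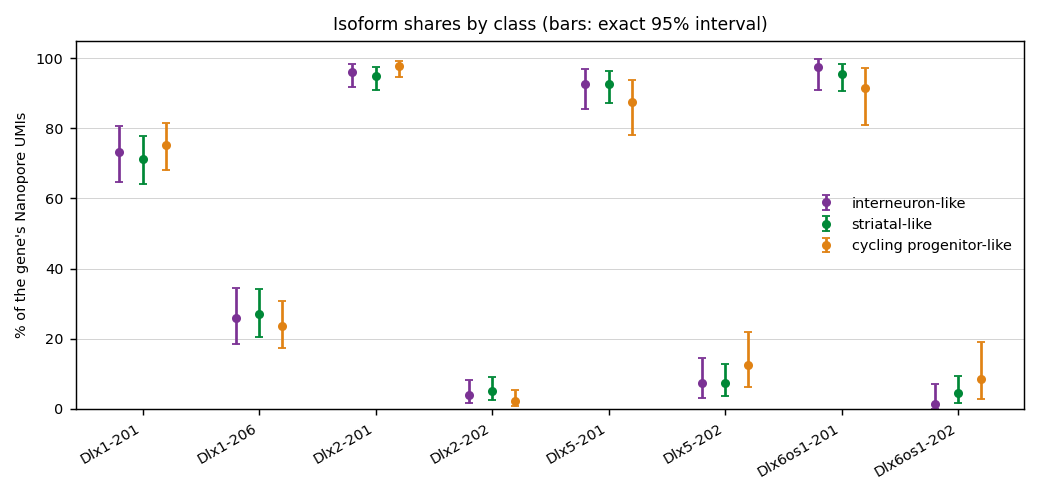
Share of each gene's Nanopore UMIs taken by its 2 main isoforms in interneuron-like, striatal-like and cycling progenitor-like cells, with exact 95% intervals for counting error. The intervals of the 3 classes overlap for every isoform drawn.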

How the data were processed

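The files hold raw UMI counts in cells of 1 mouse brain suspension, split into 2 aliquots, each measured with Illumina and Nanopore. The authors made and deposited the Illumina counts per gene with Cell Ranger 2.0 (named in the submitters' processing notes) on mm10. The Nanopore counts, per Gencode vM18 isoform, were deposited by the authors after mapping with minimap2, with cell barcodes and UMIs assigned by means of the Illumina reads. Neither was normalized. Nanopore counts per gene are sums over isoforms, and UMIs without an isoform were not analysed here, which lowers the counts of genes whose reads match no single annotated isoform. Illumina totals were 1809081 and 8295650 UMIs in the 190 and 951 cell aliquots, and Nanopore totals 993220 and 4889148.

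Cells with at least 1400 genes were kept. Cells were clustered with Seurat 5.3.0 (2000 variable genes without the 34 genes studied, 11 dimensions, resolution 0.8) and named from marker lists. To be named, a class needed 3 raised markers and a lead of 0.2 over the next name. A raised marker was found in 10% of its cells or more and was at least 0.5 (log2) above the rest. The raised markers had to include some on no other list. A class also stayed unnamed when its 10 leading genes held more markers of another list. By that rule the 87 cells stayed unnamed, though 6 of 7 intermediate progenitor markers were raised in them. These naming limits were set after the clusters were seen. The 9 genes and all lists were chosen with earlier results of these data known. Scrublet in scanpy 1.11.5 marked 3 and 4 cells as doublets, 0 of them in the GABAergic classes.

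Sums per class and aliquot entered edgeR 4.0.16, run in R 4.3.3 (TMM, filterByExpr, robust quasi-likelihood F test, Benjamini-Hochberg over all genes tested, threshold 0.05). One fit held the 6 classes that had 5 or more cells per aliquot. The SE is the log2 change divided by the square root of F. Isoform usage was tested with diffSpliceDGE. Intervals are exact Poisson for levels in CPM and exact binomial otherwise. They cover counting error only, and floors are 3 UMIs. The aliquot number pairs the libraries, since both platforms read the same cDNA and all classes of an aliquot share its library. Deviations of the platforms correlated at 0.599 and those of the 15 pairs of classes at 0.127 to 0.362. Named pathway genes are, for each direction, the 3 with the largest log2 change among those called with at least 30 UMIs in the higher class, some of which are not reported here, and the 3 genes most like a member were found by Pearson's r. Of the isoforms of the 9 genes, mainly those with at least 5 UMIs were described. Coordinates and exons came from Gencode vM21 on GRCm38, the assembly of mm10. Alternatives were the aliquot as a block, DESeq2 1.42.0, other filters, clusterings and cell sets, and leaving out each aliquot.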

Additional observations from a re-analysis of the deposited data

Results flagged for a closer look

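The 20 barcodes left out for fewer than 1400 detected genes held 9 Illumina UMIs of Dlx1, above the 3 UMIs that a count of 0 allows, which is a signal in cells outside the main comparisons. They entered only the platform comparison over all deposited barcodes, one of the alternatives. With 195785 UMIs of all genes in these barcodes, that is 46.0 CPM. Over all kept cells Dlx1 was higher, at 106 and 74.6 CPM in the 190 and the 951 cell aliquot. Dlx5 and Dlx6os1 had 3 UMIs each there, Ebf1 had 2, Dlx6 had 1, and Dlx2, Lhx6, Maf and Isl1 had 0. With 2 aliquots in every group, no test for a single outlying sample was possible.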

How the results depend on the processing

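The number of genes called moved most with the test. With the replicate block it was 486 in place of 220 and 289 in place of 153 for the interneuron-like against the striatal-like class on Illumina and Nanopore, and 1358 in place of 761 and 850 in place of 562 for the GABAergic-like against the glutamatergic-like classes. With DESeq2 the same 4 counts were 85, 56, 330 and 193, and the platform comparison gave 3071 in place of 4976. With all isoforms of at least 5 UMIs, 0 of 4571 genes were called for isoform usage by diffSpliceDGE of edgeR. Of the 4571 genes, 192 were at an unadjusted p under 0.05. This setting brings in more genes and also low-count isoforms of genes already tested. Which of these lowered the number of calls was not tested. The other settings kept the counts within 1.5 times.

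No called change of a member turned its sign under any setting. With 1 aliquot left out there are no residual degrees of freedom, so these values carry no test. GABAergic-like against glutamatergic-like, they ran from 4.69 to 5.87 for Dlx2 and from 5.84 to 6.47 for Dlx5 on Illumina, and from 6.88 to 8.69 for Dlx1 and from 7.12 to 9.35 for Dlx2 on Nanopore. Isl1, GABAergic-like against glutamatergic-like on Illumina, was also called with DESeq2, with no filter on low counts and without doublets. Leaving out the cells with barcodes shared by both aliquots, an alternative chosen after seeing the data, changed none of 37 calls. The block changed no call of a member beyond those given in the report. Of the 36 shares of cells examined, 29 moved out of their interval when cells were thinned to 2000 UMIs. Averaging over cells moved 8 of 36 levels by more than the spread of the aliquots. Depth limits Lhx6 (66 UMIs) and Dlx6 (112) most, and Nanopore counts of Dlx6, Lhx6, Maf and Ebf1 carry no class comparison.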
